A study of Mus musculus with 16 samples.

Results

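Gpc3, Bex1, Zhx2 and Zbtb20 were followed in mouse liver over the first 4 weeks after birth, in Control mice and in mice lacking Mettl3 in the liver. They are 4 of the 53379 genes in the expression table and were taken by name. All 4 were selected on the same liver values that are described here, 2 of them (Gpc3, Bex1) as genes of the fetal liver and 2 (Zhx2, Zbtb20) as repressors of such genes, so their levels and differences are given as descriptions with no test. All 4 passed the filter of at least 1 FPKM in at least 2 libraries, where FPKM is the number of fragments per kilobase of exon, scaled to the size of the library. Zhx2 and Zbtb20 each reached 1 FPKM in only 7 of 16 libraries, all but 1 of them at W2 or W4, so they passed through the groups in which they were high.

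Poly(A) RNA of whole liver was sequenced from C57BL/6J mice at 1 day (P1) and at 1, 2 and 4 weeks (W1, W2 and W4). Control animals are labelled wild type. The Mettl3 cKO animals were Mettl3 flox/flox mice with an Albumin-driven Cre transgene, which acts in hepatocytes and cells of their lineage and leaves Mettl3 in the other cells of the liver. Each of the 8 groups had 2 libraries from different animals, and in bulk tissue fewer cells of a type and less RNA per cell cannot be told apart.

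Around birth the liver turns from a blood-forming organ into a metabolic one, and hepatocytes silence a set of fetal genes headed by Afp, the serum protein alpha-fetoprotein. Zhx2, a protein with zinc fingers and homeodomains, was found through a mouse strain that keeps Afp after birth and is known to repress Afp, H19 and Gpc3 in mouse liver. Zbtb20, a zinc-finger protein with a BTB domain, is a second known repressor of Afp in mouse liver. Gpc3 is a heparan sulfate proteoglycan tied to the cell surface by a lipid anchor and is best known as a marker of liver cancer, while Bex1 belongs to a family of small X-linked proteins studied mostly in the nervous system.

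Gpc3 (ENSMUSG00000055653) lies on chromosome X at 52272426 to 52613950 on the minus strand of mm10. Bex1 (ENSMUSG00000050071) lies on chromosome X at 136213972 to 136215513, also on the minus strand. Zhx2 (ENSMUSG00000071757) lies on chromosome 15 at 57694665 to 57839832 and Zbtb20 (ENSMUSG00000022708) on chromosome 16 at 42875881 to 43642602, both on the plus strand. RefSeq promoter sequences (GRCm38.p6, the assembly behind mm10) matched 3 of the 4 genes. The 250 bases before the start are shown for Gpc3 and Bex1 because these are the genes whose levels separated the groups most widely. Capitals mark the GC box, GGGCGG or its reverse complement CCGCCC, the letters read by the SP family of activators, searched on both strands.
Gpc3, chrX:52613975-52614224, minus strand: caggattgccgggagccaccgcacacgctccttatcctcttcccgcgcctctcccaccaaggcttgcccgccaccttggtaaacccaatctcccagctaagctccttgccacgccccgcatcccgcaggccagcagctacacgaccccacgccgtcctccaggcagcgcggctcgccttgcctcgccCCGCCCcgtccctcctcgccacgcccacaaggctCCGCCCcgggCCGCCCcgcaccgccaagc
Bex1, chrX:136215514-136215763, minus strand: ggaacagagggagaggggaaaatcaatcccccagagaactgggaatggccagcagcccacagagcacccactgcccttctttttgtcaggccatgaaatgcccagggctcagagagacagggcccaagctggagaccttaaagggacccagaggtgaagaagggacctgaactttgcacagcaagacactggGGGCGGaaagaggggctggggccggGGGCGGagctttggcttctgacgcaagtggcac

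The Gpc3 window held 3 GC boxes and the Bex1 window 2. Of all 32851 RefSeq promoter windows of this length 32.7% held at least 1 GC box, 16.7% at least 2 and 8.5% at least 3. In base composition the windows were unlike each other. The Gpc3 window was 71.6% G and C with 25 CG pairs, and the Bex1 window 59.6% with 4 CG pairs, against a median over all windows of 52.4% and 6 CG pairs. Neither window held TATAAA, searched on the gene's own strand and present in 7.6% of windows. The Gpc3 window held 1 CCAAT box (CCAAT or ATTGG, in 33.8% of windows), the letters bound by NF-Y, and the Bex1 window held none. The Zbtb20 window, which lies at an internal start of the gene, was 44.8% G and C and held none of these 3 motifs. These matches describe letters and are no evidence that a factor binds there.

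Mettl3 is the catalytic subunit of the enzyme that writes m6A, a methyl mark on mRNA placed mostly within motifs such as GGAC. The longest coding transcript of Gpc3 held 10 GGAC motifs, or 4.51 per kilobase, which was above 57.5% of 12573 tested genes. Bex1 held 3 (3.46 per kilobase), Zhx2 14 (3.20 per kilobase) and Zbtb20 70 in a transcript of 26901 bases (2.60 per kilobase), against a median of 4.16. Only Gpc3 was above the median in this density.

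Gpc3 fell to near zero in Control livers by W4, whereas in cKO livers it stood within or above its P1 range. In Control libraries its level was 75.2 and 96.1 FPKM at P1, 36.4 and 37.5 at W1, 3.23 and 1.57 at W2, and 0.243 and 0.323 at W4. In cKO libraries it was 28.6 and 52.8 FPKM at P1, 49.2 and 44.9 at W1, 31.3 and 9.32 at W2, and 81.7 and 44.4 at W4. The genotypes did not overlap at any age, but their order turned: both cKO libraries were below both Control libraries at P1 and above them at W1, W2 and W4. At W4 the mean Control level was 0.330% of that at P1, while the mean cKO level was 155% of that at P1. The Control values at W4 stood for about 8.5 and 12.1 reads and the cKO values for about 3298 and 1286 reads, so the 223-fold ratio of the means had a thinly counted denominator.

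On the log2(FPKM + 1) scale, which understates changes of genes near 1 FPKM, the cKO minus Control difference of Gpc3 was -1.11 at P1, 0.34 at W1, 2.47 at W2 and 5.58 at W4, each ± 0.46 (SE, n = 2 per group). With a term for sex the W1 difference was -0.011, but since W1 Control was male and W1 cKO female, that term rests on the 1 male and 1 female library of P1 Control. By mean level the 8 groups ran from P1 Control down through W4 cKO, W1 cKO, P1 cKO, W1 Control, W2 cKO and W2 Control to W4 Control. W4 cKO overlapped its neighbours P1 Control and W1 cKO, and P1 cKO overlapped W1 cKO and W1 Control. Each step from W1 Control downwards was without overlap.

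The fall of Gpc3 in Control was spread over the 3 intervals, by 2.32-fold from P1 to W1, 15.4-fold from W1 to W2 and 8.49-fold from W2 to W4, with no overlap between neighbouring ages. In cKO the means of P1 and W1 overlapped, the level fell 2.32-fold from W1 to W2, and it then rose 3.10-fold from W2 to W4. The rise after W2 did not overlap either, since the lower W4 library (44.4 FPKM) was above the higher W2 library (31.3 FPKM). By level the cKO pattern was thus a dip at W2 and not a slow decline. The P1 and W1 cKO libraries were female and the W2 and W4 cKO libraries male. Sex and age thus cannot be told apart in the fall to W2, while the rise after W2 was among males.

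Bex1 showed a like split between the genotypes, but its level in cKO at W4 was well under the P1 level. In Control libraries Bex1 stood at 105 and 103 FPKM at P1, 11.4 and 4.65 at W1, 1.64 and 1.37 at W2, and 0 and 0.331 at W4. In cKO libraries it stood at 72.4 and 83.6 FPKM at P1, 23.6 and 37.7 at W1, 9.20 and 4.98 at W2, and 20.3 and 21.1 at W4. As with Gpc3, both cKO libraries were below both Control libraries at P1 and above them at the 3 later ages. Mean Control level at W4 was 0.159% of that at P1 and mean cKO level 26.6%. The Control libraries at W4 held 0 and about 5.5 Bex1 reads, against about 362 and 270 in cKO, so the 125-fold ratio of the means rested on 1 library with few reads.

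For Bex1 the log2 difference, cKO minus Control, was -0.41 at P1, 1.88 at W1, 1.64 at W2 and 4.23 at W4, each ± 0.34 (SE, n = 2 per group). Bex1 was ahead of Gpc3 in time. In Control it fell 12.9-fold from P1 to W1, where Gpc3 fell 2.32-fold, then 5.34-fold and 9.10-fold over the next intervals. In cKO it fell 2.55-fold and 4.32-fold to W2 and rose 2.92-fold to W4, with no overlap between neighbouring ages. The groups ran from P1 Control through P1 cKO, W1 cKO, W4 cKO, W1 Control, W2 cKO and W2 Control to W4 Control, and only W1 Control and W2 cKO overlapped.

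**Figure D1:**
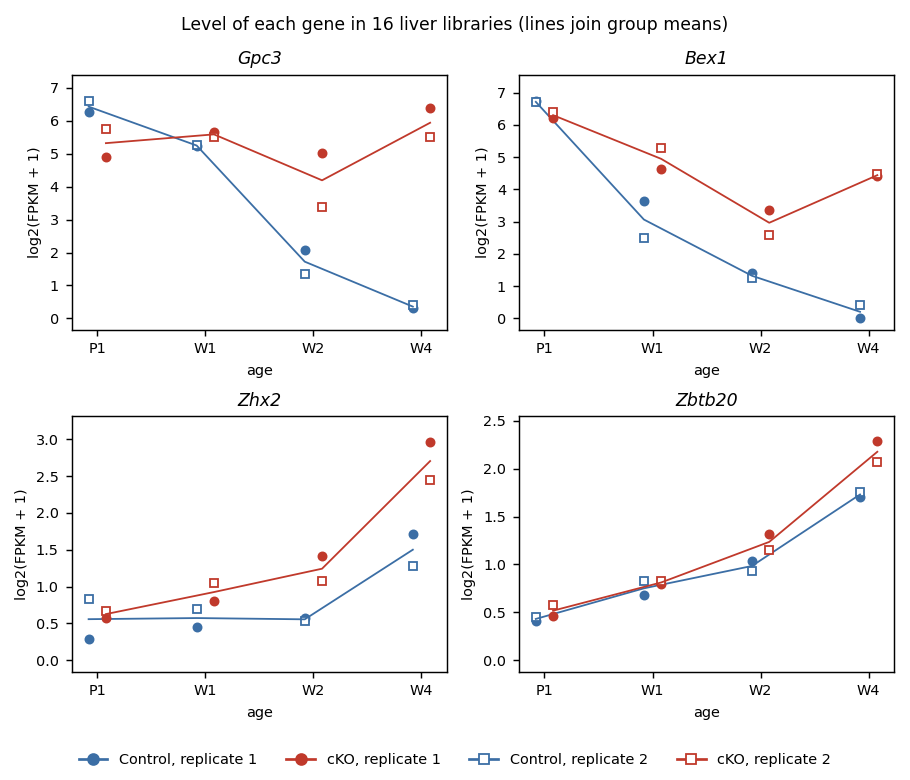
Level of Gpc3, Bex1, Zhx2 and Zbtb20 as log2(FPKM + 1) on the vertical axis against age on the horizontal axis, with 1 point for each of the 16 libraries and lines through the group means of Control and cKO. Gpc3 parts widely by genotype from W2 and Bex1 from W1, both with a dip and a rise in cKO (Gpc3 from 31.3 and 9.32 FPKM at W2 to 81.7 and 44.4 at W4), while Zhx2 and Zbtb20 rise in both genotypes.

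Both repressors were low at P1 and reached their highest levels in the W4 cKO libraries. In deposited FPKM Zhx2 was flat in Control until W2. It was higher in cKO than in Control at W2 and W4, where Gpc3 and Bex1 were also higher. In Control libraries Zhx2 was at 0.224 and 0.772 FPKM at P1, 0.369 and 0.618 at W1, 0.495 and 0.446 at W2, and 2.28 and 1.44 at W4. In cKO libraries it was at 0.494 and 0.597 FPKM at P1, 0.753 and 1.06 at W1, 1.67 and 1.10 at W2, and 6.78 and 4.46 at W4. The genotypes overlapped at P1 and were apart from W1 on, with cKO higher. The P1 values rested on about 13.2 to 52.7 reads per library and the W1 and W2 Control values on about 23.3 to 39.5 reads. The W4 values rested on about 89.2 to 451 reads.

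The log2 difference of Zhx2, cKO minus Control, was 0.07 at P1, 0.35 at W1, 0.69 at W2 and 1.20 at W4, each ± 0.23 (SE, n = 2 per group). At W4 the mean cKO level was 3.02-fold the Control level. With a term for sex, which rests on that same pair of P1 Control libraries, the differences at P1 and W1 were -0.20 and -0.18. With each library left out in turn the W1 difference was 0.23 to 0.47. In Control the means at P1, W1 and W2 were 0.498, 0.493 and 0.471 FPKM with overlapping libraries, and the level then rose 3.95-fold from W2 to W4. In the same livers Gpc3 had already fallen 15.4-fold and Bex1 5.34-fold between W1 and W2. Mean Zhx2 mRNA stood at 0.493 and 0.471 FPKM at those ages. All are deposited values. Mitochondrial transcripts took a larger share in W2 Control than in W1 Control, which lowers the FPKM of other genes at W2. The folds of this step were not rescaled. Relative to the summed FPKM of genes outside the mitochondrial genome, Zhx2 in Control was higher at W2 than at W1. In cKO Zhx2 rose at each interval, by 1.66-fold, 1.53-fold and 4.06-fold, with no overlap between neighbouring ages. By mean level W4 cKO was highest, followed by W4 Control and W2 cKO, which overlapped, then W1 cKO, and then P1 cKO and Control at P1, W1 and W2, each of which overlapped the next.

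Zbtb20 rose with age in both genotypes and, from W1 on, had the smallest difference of the 4 genes between them. Its Control libraries were at 0.333 and 0.365 FPKM at P1, 0.600 and 0.771 at W1, 1.05 and 0.909 at W2, and 2.26 and 2.37 at W4. Its cKO libraries were at 0.373 and 0.494 FPKM at P1, 0.733 and 0.780 at W1, 1.49 and 1.23 at W2, and 3.87 and 3.19 at W4. The genotypes overlapped at W1 only. The annotated exons of Zbtb20 add up to 30730 bases, so its FPKM is divided by a great length, and the values stood for about 136 to 1786 reads per library.

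From P1 to W4 Zbtb20 rose 6.64-fold in Control and 8.15-fold in cKO, with no overlap between neighbouring ages of a genotype. The log2 difference, cKO minus Control, was 0.09 at P1, 0.06 at W1, 0.25 at W2 and 0.45 at W4, each ± 0.14 (SE, n = 2 per group). The W4 value equals the median difference of all 14913 tested genes, which was 0.44 at W4. After rescaling the libraries by the median of ratios, which puts that median near 0, the Zbtb20 difference at W4 was -0.018, so no direction between the genotypes can be given. Under the same rescaling Gpc3 was at 5.14, Bex1 at 3.83 and Zhx2 at 0.73. Rescaling to the summed FPKM of genes outside the mitochondrial genome gave 5.55, 4.19, 1.24 and 0.48 for Gpc3, Bex1, Zhx2 and Zbtb20. Zhx2, Gpc3 and Bex1 thus stayed above 0 at W4 on each of the 3 scales.

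**Figure D2:**
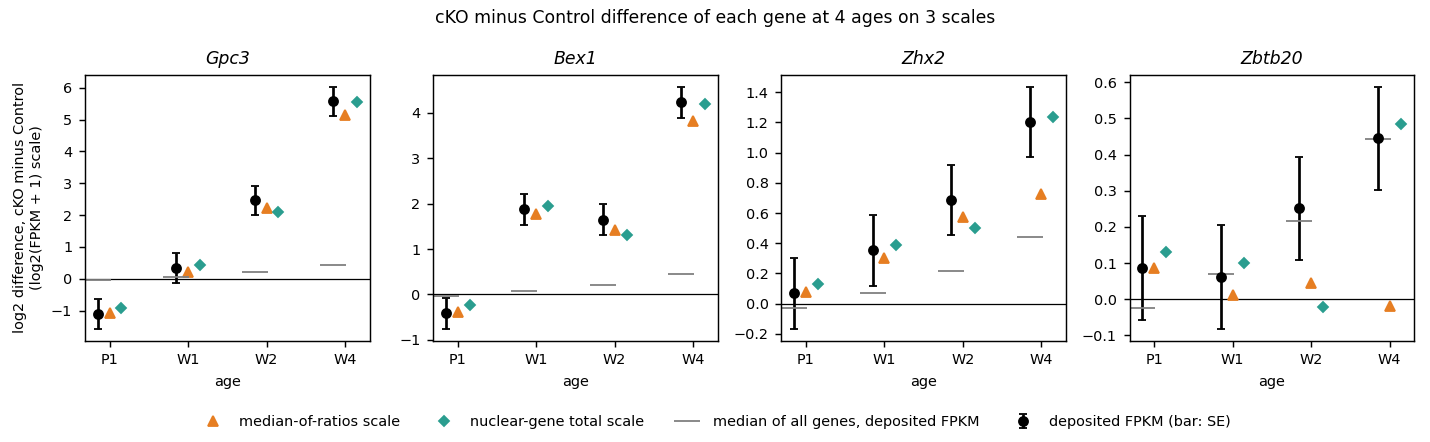
Difference in level, cKO minus Control, of each gene on the log2(FPKM + 1) scale (vertical axis, with its own range in each panel) at each age (horizontal axis), from deposited FPKM (black, bars are SE) and on 2 other library scales, with grey dashes for the median of all tested genes. At W4 Gpc3 (5.58), Bex1 (4.23) and Zhx2 (1.20) lie above the grey dash at 0.44 and Zbtb20 (0.45) lies on it.

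The study compared the genotypes at each age, and the calls of the limma fit over all genes (adjusted p under 0.05) give the background against which these genes stand. At P1 none of the 4 genes was called, with 0.0738% of all tested genes called higher in cKO and 0.0939% lower. At W1 Bex1 was called higher, with a background of 3.24% higher and 1.59% lower. Gpc3, Bex1 and Zhx2 were called higher at W2, where 24.6% of all genes were higher and 4.49% lower, and all 4 at W4, where 46.9% were higher and 12.4% lower. Since the genes were selected on these contrasts, nothing is read from those counts. From P1 to W4 the fit called Gpc3 and Bex1 lower and Zhx2 and Zbtb20 higher in Control, with 42.1% of all genes lower and 12.4% higher. In cKO over the same span Bex1 was called lower, Zhx2 and Zbtb20 higher and Gpc3 neither, with 25.4% of all genes lower and 31.7% higher.

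The split of the calls depended on the scale. At W4 79.1% of the genes called were higher in cKO on the deposited scale and 51.8% after the median of ratios. On the deposited scale, the nuclear scale and the median of ratios the shares were 84.6%, 41.6% and 49.6% at W2. In that order they were 67.1%, 79.7% and 50.9% at W1, and 22.7%, 25.7% and 47.9% from P1 to W4 in Control. Of the few genes called at P1 44.0% were higher on the deposited scale and 76.9% on the scale of nuclear genes.

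Libraries held about 10770000 to 15477000 reads by the steps in the FPKM values. Mitochondrial transcripts took 58.1% and 59.0% of FPKM in the W2 Control libraries and 14.8% to 43.8% in the other 14. A larger share lowers the FPKM of other genes, and the steps between neighbouring ages were not rescaled for it. Read from Xist and Y-linked transcripts, 11 libraries were male and 5 female. W1 Control was male and W1 cKO female, so at W1 sex and genotype cannot be told apart, which touches Gpc3 and Bex1 as X-linked genes, while all libraries at W2 and W4 were male. Both P1 cKO libraries were female, and P1 Control held 1 male and 1 female. In cKO sex and age thus cannot be told apart between P1 or W1 and the later ages W2 and W4. Mettl3 itself was at 4.94 to 8.12 FPKM in Control and 6.72 to 11.3 FPKM in the libraries labelled cKO, and at every age both cKO libraries were above both Control libraries, a direction opposite to that of a deletion. A value per gene also counts the exons that Cre does not remove, so it does not check the labels.

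Alb, the serum albumin gene of hepatocytes, was at 14347 FPKM or more in every library. At W4, where 46.9% of all genes were called higher in cKO and 12.4% lower, markers of other cells moved with Gpc3 and Bex1. The summed level of 10 cholangiocyte markers was 23.3 to 27.6 FPKM in Control and 182 to 279 FPKM in cKO, and 6 of the 7 that could be tested were called higher, with Krt19, a keratin of bile duct cells, at 0.732 and 2.23 FPKM in Control and 28.8 and 17.2 in cKO. Among these markers Cftr and Sctr were at 0 in both W4 Control libraries. All 9 stellate and fibroblast markers were called higher (summed level 50.9 to 54.0 FPKM in Control and 297 to 436 FPKM in cKO), as were all 5 endothelial (15.7 to 16.4 and 52.4 to 55.6 FPKM), all 5 macrophage (51.0 to 59.5 and 175 to 182 FPKM) and all 6 cell cycle genes (4.42 to 8.31 and 23.7 to 25.8 FPKM). The 7 hepatocyte markers summed to 55951 to 62380 FPKM in Control and 28303 to 29103 FPKM in cKO, with 3 called lower. Most of the sum in Control was Alb (41402 and 34256 FPKM in Control, 14347 and 15710 in cKO). The list did not fall as a whole. Tat was at 870 and 830 FPKM in Control and 1107 and 890 in cKO, and the genotypes overlapped in Apob and Cps1. The 9 erythroid markers summed to 299.9 to 359.6 FPKM in Control and 234 to 244 FPKM in cKO, with 3 called lower. The part of these cells in the levels of Gpc3, Bex1 and Zhx2 was not tested. At P1 no marker was called. At W2, where 24.6% of all genes were called higher and Gpc3 was 8.45-fold and Bex1 4.71-fold above Control, 3 of 7 cholangiocyte, 2 of 9 stellate and fibroblast, 2 of 7 hepatocyte, 1 of 5 macrophage and 1 of 6 cell cycle markers were called higher, 1 of 9 erythroid markers lower and 0 of 5 endothelial markers either way. In deposited FPKM the hepatocyte markers summed to 43235 to 43815 in Control and 66296 to 79679 in cKO at W2, the reverse of the order at W4. Mitochondrial transcripts took 58.1% and 59.0% of FPKM in those Control libraries and 25.2% and 43.8% in those cKO libraries. The sums were not rescaled for this, so the size of the W2 gap depends on the scale.

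The 2 cKO animals of W1 were close in Gpc3 (ratio of replicate 1 to replicate 2 of 1.10), and at P1 replicate 1 was the lower (0.542). At W2 replicate 1 was above replicate 2 by 3.36-fold for Gpc3, 1.85-fold for Bex1, 1.52-fold for Zhx2 and 1.22-fold for Zbtb20. The same replicate was 4.28-fold higher in Afp. At W4 replicate 1 was again higher in Gpc3 (1.84-fold) and Afp (3.78-fold), whereas for Bex1 the ratio was 0.962. Leaving out W2 cKO replicate 1 brought the Gpc3 difference at W2 from 2.47 to 1.65, the lowest of the 4 libraries of that age.

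Afp, which both repressors are known to silence in mouse liver, was not among the 4 genes and was tested. Its Control libraries were at 8537 and 9748 FPKM at P1, 3735 and 2262 at W1, 12.0 and 9.63 at W2, and 1.64 and 2.43 at W4. Its cKO libraries were at 4549 and 7252 FPKM at P1, 5800.4 and 6091 at W1, 239 and 55.8 at W2, and 423 and 112 at W4. Afp did not pass the test at P1 (log2 difference -0.67 ± 0.63, limma adjusted p = 0.722) or W1 (1.03 ± 0.63, adjusted p = 0.412), and it was higher in cKO at W2 (3.31 ± 0.63, adjusted p = 0.00219) and W4 (6.18 ± 0.63, adjusted p = 6.04e-06). In Control Afp fell 277-fold between W1 and W2 in deposited FPKM. On that scale Gpc3 fell most over this interval and mean Zhx2 mRNA did not rise, while mean Zbtb20 mRNA rose 1.43-fold with no overlap. Mitochondrial transcripts took 29.4% and 22.0% of FPKM in W1 Control and 58.1% and 59.0% in W2 Control. That lowers the FPKM of other genes at W2, and the folds of this step were not rescaled. Genes outside the mitochondrial genome summed to 406639 and 464105 FPKM in W1 Control and to 289531 and 272382 in W2 Control. Relative to those sums both W2 Control libraries were above both W1 Control libraries in Zhx2, on about 23.3 to 39.5 reads per library. Whether Zhx2 rose over this step thus depends on the scale. In cKO the W2 and W4 libraries of Afp overlapped, unlike those of Gpc3 and Bex1.

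A list of 20 fetal liver genes that holds neither Gpc3 nor Bex1 was used for comparison, of which 17 could be tested. From P1 to W4 all 17 fell in Control, with a median log2 change of -3.77 against -0.38 over all genes. In cKO 14 fell and 1 rose, with a median of -2.47 against 0.08. Over this span 42.1% of all tested genes fell in Control, and 25.4% fell and 31.7% rose in cKO. Between the genotypes 0 of 17 passed at P1, 2 were lower in cKO at W1, 3 were higher and 1 lower at W2, and 10 were higher and 0 lower at W4. Of all tested genes 1.59% were lower at W1 and 4.49% at W2. On the deposited scale 24.6% of all genes were higher at W2 and 46.9% at W4, so 3 and 10 of 17 lie near that background. The medians of the list were -0.50, -0.13, 0.07 and 0.77 at the 4 ages, against -0.03, 0.07, 0.22 and 0.44 for all genes. After the median of ratios 7 of the 17 were higher and 1 lower at W4, against 26.3% and 24.5% of all tested genes. In the joint test of whether the difference depended on age, 13 of the 17 passed, against 49.6% of all genes.

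The 17 genes ranged from some with large differences at W4 to others that were low in both genotypes. At W4 Bex2, a neighbour and relative of Bex1, was at 0.0851 and 0.159 FPKM in Control and 53.3 and 27.0 in cKO (log2 difference 5.12 ± 0.39, limma adjusted p = 7.25e-07). H19, the imprinted noncoding RNA that Zhx2 also represses, was at 2.19 and 3.63 FPKM in Control and 106 and 62.9 in cKO (4.42 ± 0.40, adjusted p = 2.41e-06), although at W2 it was still at 748 and 394 FPKM in Control and 903 and 419 in cKO. Genes annotated on the opposite strand overlap H19, and without strand their reads cannot be told apart. Cd24a, a surface protein of immature liver cells and bile ducts, was higher by 4.00 ± 0.36 (adjusted p = 2.25e-06), Sox4, a transcription factor of fetal liver and bile ducts, by 3.46 ± 0.18 (adjusted p = 4.25e-08) and Grb10, an imprinted adaptor that restrains growth signalling, by 2.95 ± 0.24 (adjusted p = 1.00e-06). Sox4 was the 1 gene of the list that rose in cKO from P1 to W4 (2.05 ± 0.18, adjusted p = 1.53e-06), where Gpc3 was at 0.62 ± 0.46.

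Meg3 and Dlk1, imprinted neighbours on 1 chromosome, were low in both genotypes at W4. Meg3 fell in cKO by 4.39 on the log2 scale (limma adjusted p = 6.95e-07) and Dlk1 by 2.91 (adjusted p = 1.30e-06) from P1 to W4. At W1 Meg3 (-1.79 ± 0.34, adjusted p = 0.0114) and Peg3 (-1.27 ± 0.27, adjusted p = 0.0199) were lower in cKO. Neither passed with W1 fitted alone, or without W1 Control replicate 1 or W1 cKO replicate 2. Sex and genotype cannot be told apart for either gene at W1. At W2 Peg3 was again lower (-1.41 ± 0.27, adjusted p = 0.0022) while Bex2 was higher (2.79 ± 0.39, adjusted p = 0.000369), and Dlk1 passed at the margin (0.71 ± 0.24, adjusted p = 0.0466) and not without any 1 of the 4 libraries of that age. Igf2 was at 3.55 FPKM or less in every library and shares exons with another annotated gene, so its values are uncertain.

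**Figure D3:**
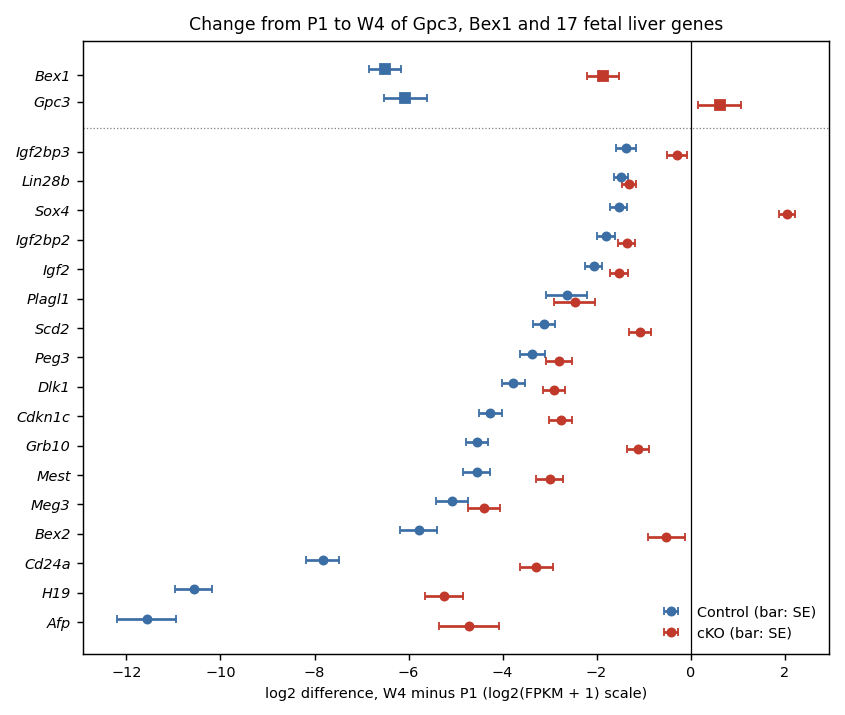
Change in level from P1 to W4 on the log2(FPKM + 1) scale (horizontal axis, bars are SE) of Gpc3, Bex1 and the 17 fetal liver genes tested (vertical axis), in Control and in cKO. In Control Gpc3 (-6.07), Bex1 (-6.51) and all 17 genes lie left of 0, and in cKO Gpc3 (0.62) and Sox4 (2.05) lie right of it while Afp (-4.71) and H19 (-5.24) stay left of it.

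The mouse liver genes known to respond to Zhx2 moved in both directions at W4. Of 7 tested, Afp and H19, which Zhx2 represses, were higher in cKO, and 3 genes with higher levels in male liver were lower. Of all tested genes 46.9% were higher and 12.4% lower at W4. Cyp4a12a, a fatty acid hydroxylase, was lower (-4.99 ± 0.44, limma adjusted p = 2.21e-06), as were Elovl3, a fatty acid elongase (-4.13 ± 0.66, adjusted p = 0.000194), and Mup20, a urinary pheromone protein (-4.16 ± 0.83, adjusted p = 0.000968). At P1 Lpl, the lipoprotein lipase that both Zhx2 and Zbtb20 are known to affect, was lower in cKO (-1.43 ± 0.18, adjusted p = 0.00833), though not with P1 fitted alone (adjusted p = 0.287) or without P1 Control replicate 2 (0.075) or P1 cKO replicate 1 (0.126). Of the 3 targets of Zbtb20, Afp was higher at W4 and Mlxipl, the carbohydrate-response factor ChREBP, lower (-3.15 ± 0.25, adjusted p = 8.39e-07).

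Among 10 other regulators of Afp, 4 were higher and 4 lower in cKO at W4, and 2 and 6 after the median of ratios. Of all tested genes 46.9% were higher and 12.4% lower at W4, and 26.3% and 24.5% after the median of ratios. Zfhx3, a homeodomain repressor of Afp, was higher (1.29 ± 0.14, limma adjusted p = 1.10e-05), as was the activator Nr5a2 (1.08 ± 0.14, adjusted p = 3.56e-05), while the hepatocyte factors Cebpa (-1.74 ± 0.28, adjusted p = 0.000221) and Hnf4a (-0.72 ± 0.18, adjusted p = 0.0044) were lower, Hnf4a not with W4 fitted alone (adjusted p = 0.0571). At W2 4 of the 10 regulators were higher and 0 lower on the deposited scale, against 24.6% and 4.49% of all genes. After the median of ratios 3 were higher and 2 lower, against 14.3% and 14.5%. On the nuclear scale 1 was higher and 2 lower, against 10.9% and 15.3%. Cebpa was among the 4 on the deposited scale, at 25.4 and 34.1 FPKM in Control and 75.2 and 65.8 in cKO. Of 5 relatives and NF-Y partners of Zhx2, 3 were higher and 1 lower at W4, against the same 46.9% and 12.4% of all genes. Zhx1, which pairs with Zhx2 in its family, was at 0.99 ± 0.22 (adjusted p = 0.00216, and 0.0536 with W4 fitted alone), the NF-Y subunit Nfya at 1.06 ± 0.16 (adjusted p = 0.000156) and Nfyb at -0.83 ± 0.23 (adjusted p = 0.00802). Zhx3 was the 1 gene of the 5 that passed at W2 (1.04 ± 0.17, adjusted p = 0.00101), the age at which Zhx2 stood at 0.69 ± 0.23. With W2 fitted alone, which leaves fewer samples, none of the 7 genes given here with an adjusted p at W2 passed, Afp included (adjusted p from 0.0548 for Bex3 to 0.103 for Tceal9).

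Bex1 lies in a cluster of related Bex and Tceal genes on chromosome X, and several of its neighbours were also higher in cKO at W4. Of 11 listed relatives 7 could be tested. From P1 to W4 all 7 fell in Control and 4 fell in cKO, against 42.1% and 25.4% of all tested genes. None of the 7 passed between the genotypes at P1 or W1. At W2 3 were higher in cKO and at W4 6 were, also after the median of ratios. Of all tested genes 24.6% were higher at W2 and 46.9% at W4, and 14.3% and 26.3% after the median of ratios. Bex3, a partner of the neurotrophin receptor, was at 4.11 and 3.28 FPKM in Control and 25.9 and 18.0 in cKO at W2 (2.27 ± 0.25, limma adjusted p = 0.000114). At W4 it was at 2.06 and 1.15 FPKM in Control and 63.1 and 42.4 in cKO (4.36 ± 0.25, adjusted p = 1.15e-07), so it too rose after W2 in cKO. Tceal9 was higher by 1.23 ± 0.25 at W2 (adjusted p = 0.00359) and by 2.55 ± 0.25 at W4 (adjusted p = 5.03e-06). Bex2 lies 146 kb from Bex1 and Bex3 54.7 kb from it on the other side.

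Shared sequence and overlap put a limit on Bex1. Of its 50-base windows 24.8% are also in Bex4 and 8.0% in Bex2, and of its 150-base windows, the length of 1 read, 14.4% are in Bex4 and 0% in Bex2. Bex4 was higher in cKO at W4 (1.80 ± 0.35, adjusted p = 0.000813) and stood at 1.47 and 1.80 FPKM in the W4 Control libraries where Bex1 stood at 0 and 0.331 FPKM. Bex1 also overlaps an exon of Tceal7 on the opposite strand, which reached at most 2.74 FPKM, and without strand their reads cannot be told apart.

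Gpc3 lies 107 kb from Gpc4, another glypican. Of 5 listed glypicans 2 could be tested, and both were higher in cKO at W4, Gpc4 by 1.37 ± 0.25 (limma adjusted p = 0.000463) and Gpc1 by 1.13 ± 0.21 (adjusted p = 0.000632). At that age 46.9% of all tested genes were higher. Gpc4 did not share the fall of Gpc3 in Control, being at 8.96 and 9.07 FPKM at P1 and 14.3 and 8.50 at W4. The 2 genes share no 50-base window, so their reads can be told apart.

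**Figure D4:**
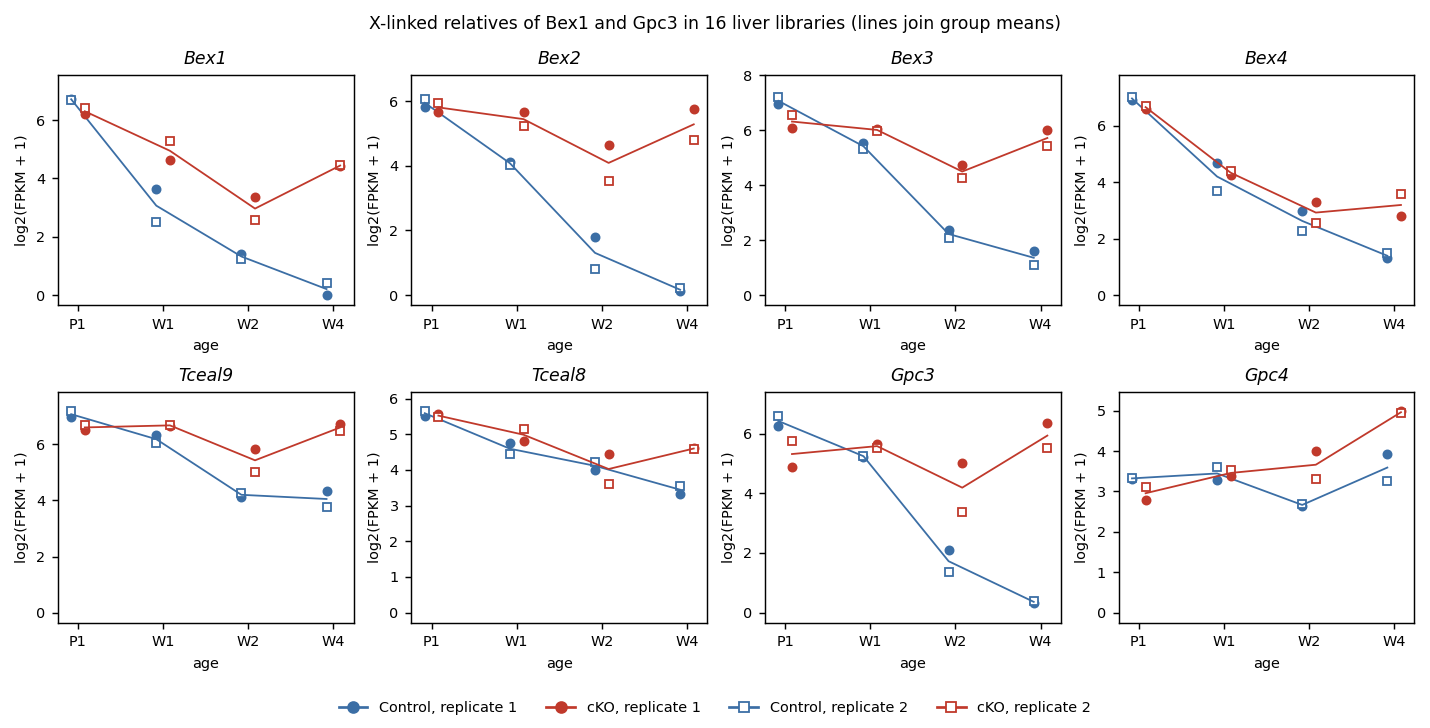
Level as log2(FPKM + 1) on the vertical axis against age on the horizontal axis for Bex1 with 5 of its X-linked relatives and for Gpc3 with Gpc4, with 1 point per library and lines through the group means. Bex2, Bex3 and Tceal9 dip at W2 and rise at W4 in cKO as Bex1 does (Bex3 from 25.9 and 18.0 to 63.1 and 42.4 FPKM), and Gpc4 does not fall in Control from P1 (8.96 and 9.07 FPKM) to W4 (14.3 and 8.50 FPKM).

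Likeness of shape was measured as Pearson's r over the 8 group means of log2(FPKM + 1), among 9028 or 9029 candidate genes, as a description of points that share libraries and ages. Closest to Gpc3 were Lgalsl (0.995), Maged2 (0.993) and Cavin1 (0.984). Maged2, an X-linked gene of the MAGE family, was at 12.6 FPKM in P1 Control, 1.49 in W4 Control and 12.5 in W4 cKO, and Cavin1, a coat protein of caveolae, at 9.87, 0.867 and 7.66 FPKM. Closest to Bex1 were Fen1 (0.997), Ubap2 (0.987) and Fkbp11 (0.986). Fen1, the flap endonuclease of DNA replication, was at 38.2 FPKM in P1 Control, 1.15 in W4 Control and 14.7 in W4 cKO. Gpc3 and Bex1 had an r of 0.898 with each other.

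Closest to Zhx2 were Micall1 (0.990), Atl3 (0.988) and Afg1l (0.987), and closest to Zbtb20 were Lsr (0.984), Gstm2 (0.981) and Mtus1 (0.980). Atl3, a membrane GTPase of the endoplasmic reticulum, was at 6.54 FPKM in P1 Control, 10.7 in W4 Control and 25.8 in W4 cKO. Zhx2 and Zbtb20 had an r of 0.928 with each other. Against Gpc3 the r was 0.007 for Zhx2 and -0.34 for Zbtb20, and against Bex1 it was -0.15 and -0.50.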

How the data were processed

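Liver poly(A) RNA from 16 mice (8 groups of 2) was sequenced as 150-base read pairs. The authors aligned reads to mm10 with HISAT2 and deposited 1 table of FPKM per gene. How fragments were counted, on which annotation and with what strand setting is not given in the sources. FPKM was identified from the values: below 20 reads, 62.7% to 70.2% of the values fell within 0.05 of a whole read when scaled by GENCODE exon length, too few for a count test. The depth of about 10770000 to 15477000 reads and the read numbers printed come from those steps and are approximate.

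The 14913 genes that reached 1 FPKM in 2 or more libraries were fitted in limma 3.58.1 (R 4.3.3, eBayes with trend) on log2(FPKM + 1), with 1 coefficient per group over all 16 libraries and Benjamini-Hochberg adjustment over all genes. The spread behind each SE and adjusted p-value was estimated per gene over all 8 groups of 2 animals and moderated across genes. It is thus not the spread within the compared groups alone. The script was tested on simulated data. The members and all lists were chosen with earlier results of these data known. Named genes were the 4 members, Afp, H19, Igf2, Mettl3, up to 4 genes per list and contrast by smallest adjusted p, and the 3 genes most like each member with a group mean of at least 5 FPKM. Markers, Tceal7 and Tceal8 fall outside that rule and were chosen after their values were seen. Alternatives were 0.1 FPKM as pseudocount, no filter, both rescalings, a replicate block, each age or genotype alone, a term for sex and each library left out. The deposited numbers allow no interval for counting error.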

Additional observations from a re-analysis of the deposited data

Results flagged for a closer look

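The order of the genotypes turned with age for Gpc3 and Bex1: both cKO libraries lay below both Control libraries at P1 and above them later. The log2 differences of Gpc3 were -1.11 at P1, 0.34 at W1, 2.47 at W2 and 5.58 at W4, and those of Bex1 were -0.41, 1.88, 1.64 and 4.23. The dependence of these differences on age was not tested, because both genes were selected on them.

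For genes outside the 4, limma's joint test asked whether the difference depended on age, which it did for 49.6% of all genes. Adjusted p was 5.48e-06 for Sox4, 4.46e-05 for Grb10, 8.36e-05 for Cd24a, 9.80e-05 for H19, 0.000503 for Afp, 0.00498 for Meg3, 0.0327 for Dlk1 and 0.0494 for Peg3. Among relatives of Bex1 and Gpc3 it was 9.79e-06 for Bex3, 0.000147 for Bex2, 0.000339 for Tceal9, 0.017 for Bex4, 0.00452 for Gpc4 and 0.00946 for Gpc1. Among genes that respond to the repressors it was 6.26e-05 for Cyp4a12a, 0.00011 for Mlxipl, 0.00145 for Lpl, 0.0053 for Mup20 and 0.00626 for Elovl3. Among regulators it was 0.000863 for Cebpa, 0.00332 for Nfya, 0.00517 for Zfhx3, 0.00746 for Nr5a2, 0.0117 for Zhx1, 0.0161 for Hnf4a and 0.0163 for Zhx3.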

How the results depend on the processing

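Gpc3, Bex1 and Zhx2 stayed higher in cKO at W4 under every alternative run. With 0.1 FPKM added, the W4 differences were 7.31 for Gpc3, 6.65 for Bex1 and 1.55 for Zhx2, and the changes from P1 to W4 in Control were -7.80, -8.97 and 1.85, with 2.43 for Zbtb20. After the median of ratios the W4 differences were 3.83 for Bex1, 0.73 for Zhx2 and -0.018 for Zbtb20, and the Control changes 1.18 for Zhx2 and 1.54 for Zbtb20. With a term for sex, set by the 1 male and 1 female library of P1 Control, the Control change of Zhx2 was 1.21, and the direction turned for Gpc3 at W1 (-0.011) and for Zhx2 at P1 (-0.20) and W1 (-0.18). The nuclear total turned Zbtb20 at W2 (-0.022).

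Leaving out 1 library moved the W4 difference between 5.15 and 6.01 for Gpc3, 4.03 and 4.44 for Bex1, 0.95 and 1.46 for Zhx2, and 0.34 and 0.55 for Zbtb20. The Control change of Zhx2 ran from 0.68 (without P1 Control replicate 1) to 1.21 (without replicate 2). Zhx2 at P1 was -0.20 without P1 Control replicate 1, and Zbtb20 at W1 was -0.012 without W1 Control replicate 1.

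The fetal genes called numbered 0 at W1 with a term for sex, and 0 at W1 and 0 at W2 with each age fitted alone. Over the libraries left out they ranged from 0 to 2 at W1, 3 to 4 at W2 and 8 to 9 at W4, with 17 in Control and 15 in cKO from P1 to W4, and 9 to 12 depended on age.

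Same-numbered Control and cKO libraries deviated together only weakly, with r of 0.02 at P1, 0.13 at W1, 0.02 at W2 and 0.09 at W4. These values cannot say whether the replicate numbers pair animals. With the replicate block 13 fetal genes depended on age, as without it, and at W2 Dlk1 no longer passed (adjusted p = 0.0521). Few reads limit Gpc3 and Bex1 in W4 Control and Zhx2 at P1 and in W1 and W2 Control.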
